A study of Mus musculus with 4 samples.

Results

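Histone chaperones are proteins that escort histones and hand them on when chromatin is built or taken apart. The genes described here are the 10 mouse genes Asf1a, Asf1b, Chaf1a, Chaf1b, Nasp, Hira, Daxx, Nap1l1, Ssrp1 and Supt16h, found in the deposited expression table by Ensembl identifier. They are 10 of the 14533 genes of that table, and all 10 were among the 13005 genes tested, those averaging 50 normalized counts or more in serum or in 2i. RNA had been sequenced from mouse embryonic stem cells (ESCs) kept for over 20 days in medium with serum and LIF (serum ESCs), or in serum-free Ndiff medium with LIF, the MEK inhibitor PD0325901 and the GSK3 inhibitor CHIR99021 (2i ESCs). There were 2 libraries per group and 4 in all. The labels place both groups in late G1-phase, the design text of the series says early G1, and the labels name no cell line or genotype for these libraries. The study's methods describe sorting of ESCs that carry the FUCCI cell-cycle reporters.

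DNA wraps around octamers made of a H3-H4 tetramer and H2A-H2B dimers. New H3-H4 is kept soluble by NASP, is passed on by ASF1, and is placed on replicated DNA by the CAF-1 complex, of which CHAF1A and CHAF1B are subunits. The variant H3.3 is placed outside replication by the HIRA complex and, in heterochromatin and telomeres, by DAXX with ATRX. NAP1L1 binds H2A-H2B, and the FACT complex of SSRP1 and SUPT16H opens and rebuilds nucleosomes in the path of polymerases. Transcripts of several of these genes are known to rise in proliferating cells, and CAF-1 in ESCs is known for its part in keeping cell identity.

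The libraries held 18939401 to 26570098 whole reads, and the share in protein-coding genes ran from 46.9% in serum replicate 1 to 76.3% in serum replicate 2. The 10 most abundant genes took 50.6% of the reads of serum replicate 1 and 17.5% to 34.7% of the others. In a principal component analysis the first component (54.0% of the variance) separated the replicate numbers and the second (30.4%) the culture conditions. Replicates of a gene differed by a median of 0.53 between serum libraries and 0.76 between 2i libraries on the log2 scale. All 7 ESC markers were present, with 1127 to 25318 normalized counts. Nanog, Klf4 and Dppa5a were lower in both serum libraries, and Pou5f1, Sox2, Zfp42 and Esrrb overlapped between conditions. Of 6 primitive endoderm markers 4 were in the table, and their summed level was 72.0 and 109 in serum against 332 and 256 in 2i. Gata4, Gata6 and Sox17 were lower in both serum libraries, and Pdgfra overlapped between conditions. Of 5 fibroblast markers 3 were in the table, with sums of 271 and 235 in the serum libraries, against 289 and 201 in the 2i libraries. Thy1 was higher in both serum libraries, Twist1 was lower in both, and Col1a1 overlapped. The part of these library and marker differences in the results was not tested. The study calls such libraries biological replicates, the labels only number them, and neither says how the cultures were separated, so the p-values measure the spread between these libraries. In bulk RNA, fewer cells of a type and less RNA per cell cannot be told apart.

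Log2 fold changes below are of log2(normalized count + 1), serum over 2i, each with its standard error from limma over 2 libraries per group. All 10 genes had a log2 fold change above 0 for serum over 2i, with Chaf1b at 0.0036 and turning to the 2i side under TMM and upper quartile scaling, edgeR and DESeq2. Of all genes tested, 50.3% were above 0. The median over the 10 genes was 0.88, beside 0.0047 over all genes tested and 0.019 over the 11816 protein-coding genes tested. Serum replicate 2 also lay above serum replicate 1 in 8 of the 10 genes, with a median log2 difference of 0.51 (all genes 0.045). For 2i replicate 2 over 2i replicate 1 this held in 6, with a median of 0.44 (all genes 0.031). In 8 of the 10 genes both serum values lay above both 2i values, which held for 20.5% of all genes; Chaf1b and Nap1l1 were the exceptions. For 5 genes (Chaf1a, Nasp, Hira, Ssrp1 and Supt16h) the difference between conditions was larger than both differences between replicates, as for 13.7% of all genes, a count added after the values were seen.

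None of the 10 genes passed the test of limma with Benjamini-Hochberg adjustment over all genes, at an adjusted p under 0.05 and a log2 fold change beyond 1. The same rule called 0% of all genes higher and 0.0154% lower in serum. At an unadjusted p under 0.05, limma gave 1 of the 10 as higher in serum (Hira), beside 2.97% of all genes. At that threshold edgeR gave the same 1 gene, beside 2.24%, and DESeq2 on the recovered whole reads gave 3 (Nasp, Supt16h and Hira), beside 5.37%. Their adjusted p by DESeq2 was 0.161, 0.191 and 0.196. Log2 fold changes were above 1 for Nasp, Supt16h and Hira, which is 3 of 10 beside 9.89% of all genes. Leaving out serum replicate 2 left 0 of the 10 above 1, beside 9.17% of all genes, and a median of 0.572. Leaving out serum replicate 1 gave 6, beside 15.5% of all genes, and leaving out 2i replicate 2 gave 7, beside 11.5%.

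**Figure D1:**
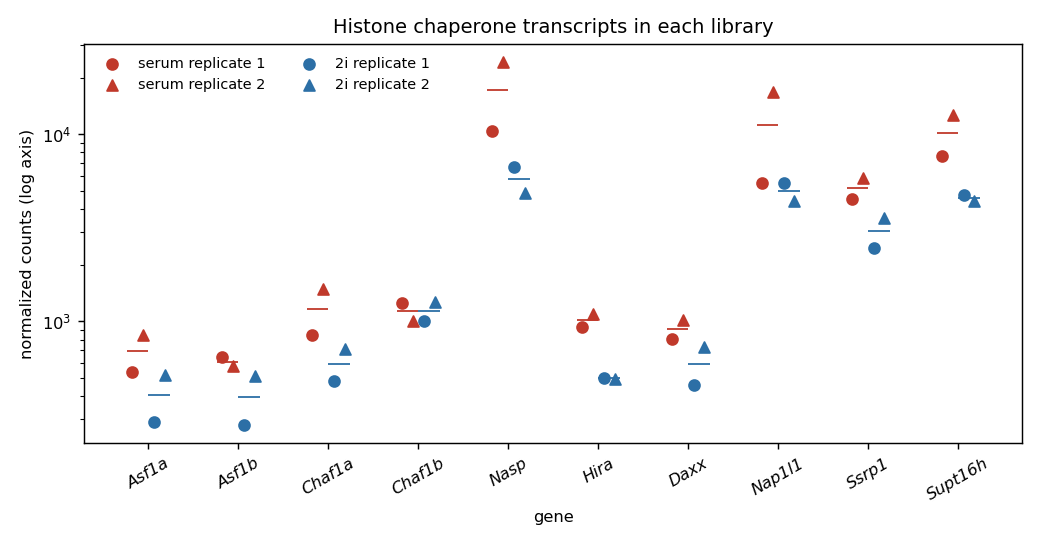
Normalized counts (log axis) of the 10 histone chaperone genes in the 2 serum and the 2 2i libraries; each point is 1 library and each bar the group mean. Serum points lie above the 2i points in 8 genes, beside 20.5% of all genes tested, and overlap with them in Chaf1b and Nap1l1.

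The promoters of these genes were searched because several of the genes are known to be cell-cycle regulated. The window was the 250 bases before each gene's start in RefSeq, on GRCm38.p6, a later build than the mm9 of the expression data. All 10 genes matched, with 13 windows, since Daxx had 3 starts and Ssrp1 had 2. Both strands were searched. For the CCAAT box the letters were CCAAT, and for the CHR element they were TTTGAA. A match for E2F was TTCCCGC in the usual form. The forms TTGGCGC and, likewise for E2F, TTCGCGC were searched as well. The last form of E2F was TTGCCGC. Read on the other strand, TTGGCGC can overlap CCAAT by 4 letters. E2F letters were in 4 of the 13 windows, of 4 genes (Chaf1a, Chaf1b, Nap1l1 and Ssrp1), beside 7.89% of all 32851 windows. CCAAT was in 6 of the 13, of 6 genes, beside 33.8%. TTTGAA was in 4 of the 13, of 3 genes (Asf1b, Nasp and Ssrp1), beside 16.0%. Windows of Hira and Supt16h held none of these letters. The 13 windows were 46.4% to 74.4% G or C, and the shares were not adjusted for base composition. The 3 windows of Daxx overlap each other. In the sequences printed below, capitals mark the matches, and a match is a description and not a shown binding site.

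Among the H3-H4 donors, Asf1a (ENSMUSG00000019857, mm9 chr10:53316767-53329019, plus strand) measured 535 and 850 normalized counts in the serum libraries, against 289 and 517 in the 2i libraries. Its paralog Asf1b (ENSMUSG00000005470, mm9 chr8:86479406-86494096, plus strand), known as the form of proliferating cells, had 643 and 577 in the serum libraries, against 280 and 510 in the 2i libraries. Both serum libraries were above both 2i libraries for each paralog, and 2i replicate 1 was the lowest for both. The log2 fold change was 0.80 ± 0.52 (limma adjusted p = 0.759) for Asf1a and 0.69 ± 0.49 (adjusted p = 0.763) for Asf1b. The fold between the 2i replicates, 1.79 and 1.82, was larger than the fold between conditions, 1.74 and 1.61, for the paralogs in the same order. Leaving out 2i replicate 1 lowered Asf1a to 0.38 and Asf1b to 0.26, and leaving out 2i replicate 2 raised them to 1.22 and 1.12. Without serum replicate 2 Asf1a was at 0.47.

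Chaf1a (ENSMUSG00000002835, mm9 chr17:56179827-56206973, plus strand), the large subunit, had 847 and 1496 normalized counts in the serum libraries, against 479 and 709 in the 2i libraries. Chaf1b (ENSMUSG00000022945, mm9 chr16:93884146-93906360, plus strand), the middle subunit, had 1262 and 1010 in the serum libraries, against 1001 and 1267 in the 2i libraries. Chaf1a was separated between conditions, and Chaf1b overlapped fully. The log2 fold change of Chaf1a was 0.95 ± 0.50 (limma adjusted p = 0.753), with a 95% interval from -0.25 to 2.15, and 0.54 without serum replicate 2. That of Chaf1b was 0.0036 ± 0.43 (adjusted p = 0.999), with an interval from -1.04 to 1.05. Chaf1a shares 144 exon bases with Ubxn6 on the other strand, which had 712 and 812 in the serum libraries, against 359 and 801 in the 2i libraries, and the counting is not stated to use strand. The promoter windows of the 2 subunits are shown because both hold E2F letters; Chaf1a has a pair of them starting 56 and 47 bases before its start, and Chaf1b has 1 match, on the other strand, 227 bases before.
Chaf1a promoter, GRCm38.p6 chr17:56040166-56040415, plus strand: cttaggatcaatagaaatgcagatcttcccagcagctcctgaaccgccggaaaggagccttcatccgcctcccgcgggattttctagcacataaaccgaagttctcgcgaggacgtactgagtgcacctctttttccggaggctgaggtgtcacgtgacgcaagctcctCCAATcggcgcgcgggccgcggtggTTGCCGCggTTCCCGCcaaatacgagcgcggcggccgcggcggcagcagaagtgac
Chaf1b promoter, GRCm38.p6 chr16:93883651-93883900, plus strand: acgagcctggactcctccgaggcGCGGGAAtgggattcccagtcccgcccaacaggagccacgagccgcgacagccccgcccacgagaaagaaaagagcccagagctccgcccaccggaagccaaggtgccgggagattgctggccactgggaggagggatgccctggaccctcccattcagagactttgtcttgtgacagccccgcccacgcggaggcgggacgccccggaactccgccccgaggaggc

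Nasp (ENSMUSG00000028693, mm9 chr4:116273657-116300556, minus strand), whose protein protects a soluble reserve of H3-H4, had 10373 and 24268 normalized counts in the serum libraries, against 6682 and 4879 in the 2i libraries. Its serum values lay above its 2i values, and serum replicate 2 stood far above serum replicate 1. The fold between conditions was 2.78, the highest of the 10 genes, and the fold between serum replicates was 2.34. The log2 fold change was 1.47 ± 0.61 (limma adjusted p = 0.753, unadjusted p = 0.050). Leaving out serum replicate 2 lowered it to 0.86, and leaving out serum replicate 1 gave 2.09. The window before its start held CCAAT at 189 (on the other strand) and 99 bases and TTTGAA at 130 bases, and is shown for the member with the largest difference.
Nasp promoter, GRCm38.p6 chr4:116627952-116628201, minus strand: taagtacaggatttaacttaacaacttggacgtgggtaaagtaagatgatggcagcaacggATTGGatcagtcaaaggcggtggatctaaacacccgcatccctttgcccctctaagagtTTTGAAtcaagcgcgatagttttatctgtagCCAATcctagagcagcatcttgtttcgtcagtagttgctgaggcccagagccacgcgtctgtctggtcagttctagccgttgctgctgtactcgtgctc

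Hira (ENSMUSG00000022702, mm9 chr16:18877130-18970402, plus strand), the scaffold of the complex that deposits H3.3 in active regions, had 929 and 1098 normalized counts in the serum libraries, against 499 and 493 in the 2i libraries. Its 2i libraries differed by a fold of 1.01 and its serum libraries by 1.18, and the fold between conditions was 2.03. The log2 fold change was 1.02 ± 0.42 (limma adjusted p = 0.753, unadjusted p = 0.0486), with a 95% interval from 0.0086 to 2.04. Leaving out a library gave values from 0.90 to 1.15, with unadjusted p from 0.0635 to 0.205 by limma. Daxx (ENSMUSG00000002307, mm9 chr17:34046359-34052534, plus strand), which deposits H3.3 with ATRX, had 803 and 1023 in the serum libraries, against 459 and 731 in the 2i libraries. Groups did not overlap for Daxx, but its fold between conditions of 1.56 was below the 1.59 between its 2i replicates. Its log2 fold change was 0.64 ± 0.47 (limma adjusted p = 0.763), and leaving out 2i replicate 1 gave 0.31, leaving out 2i replicate 2 gave 0.98. The Hira window is shown because it holds none of the searched letters.
Hira promoter, GRCm38.p6 chr16:18876500-18876749, plus strand: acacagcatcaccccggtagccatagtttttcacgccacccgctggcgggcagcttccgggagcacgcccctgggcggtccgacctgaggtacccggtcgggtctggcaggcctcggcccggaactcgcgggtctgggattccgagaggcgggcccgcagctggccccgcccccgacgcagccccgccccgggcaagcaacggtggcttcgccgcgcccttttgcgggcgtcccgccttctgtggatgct

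Nap1l1 (ENSMUSG00000058799, mm9 chr10:110910248-110935198, plus strand), an importer and exchanger of H2A-H2B, had 5483 and 16856 normalized counts in the serum libraries, against 5500 and 4395 in the 2i libraries. Serum replicate 1 lay between the 2i libraries, and serum replicate 2 stood 3.07-fold above it. The log2 fold change was 0.97 ± 0.66 (limma adjusted p = 0.759), and leaving out serum replicate 2 gave 0.16, leaving out serum replicate 1 gave 1.78. Only 82.4% of its 43-base words, the read length, occur in no other annotated gene, and 16.6% also occur in the pseudogene Gm4204, so its value is uncertain.

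Both FACT subunits were separated between the conditions. Ssrp1 (ENSMUSG00000027067, mm9 chr2:84877355-84887266, plus strand) measured 4521 and 5813 normalized counts in the serum libraries, against 2475 and 3576 in the 2i libraries. Supt16h (ENSMUSG00000035726, mm9 chr14:52780094-52816914, minus strand) had 7692 and 12732 in the serum libraries, against 4717 and 4385 in the 2i libraries. The log2 fold change was 0.78 ± 0.47 (limma adjusted p = 0.753) for Ssrp1 and 1.12 ± 0.51 (adjusted p = 0.753, unadjusted p = 0.068) for Supt16h. For Supt16h the fold of 2.18 between conditions was above the 1.66 between serum replicates and the 1.08 between 2i replicates. Supt16h shares 889 exon bases and 19.0% of its 43-base words with Rpgrip1 on the other strand, and Rpgrip1 had 27.0 and 38.9 in the serum libraries, against 64.4 and 34.0 in the 2i libraries.

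**Figure D2:**
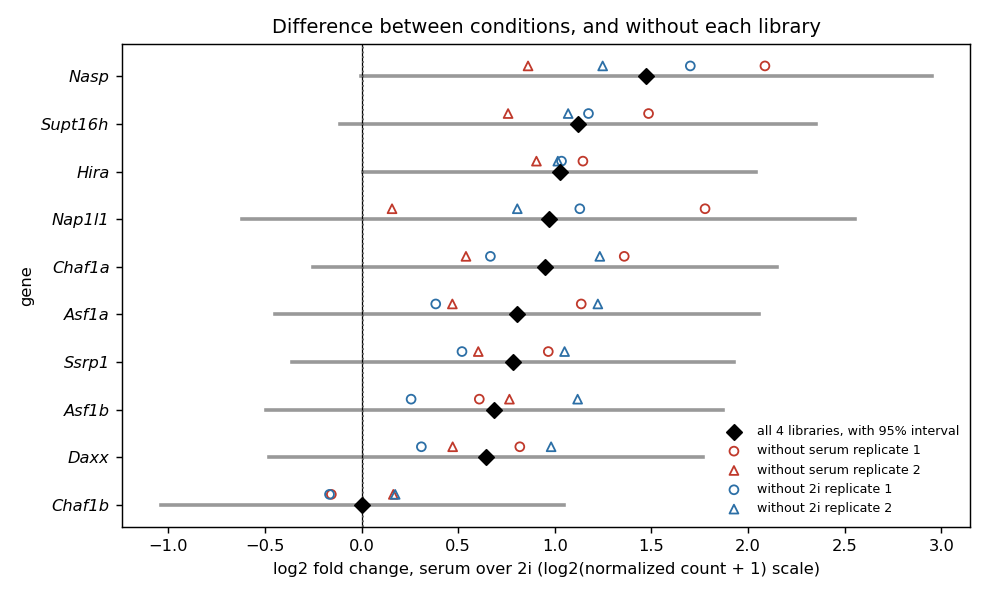
Log2 fold change of serum over 2i for the 10 genes, on the log2(normalized count + 1) scale; diamonds are the limma values with 95% intervals and open symbols the values without 1 library. Intervals of 9 genes include 0; that of Hira begins at 0.0086, and open symbols of Nap1l1 span 0.16 to 1.78.

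Per kilobase of exon, the order of mean levels in serum was Nap1l1 (2673 normalized counts per kb), Nasp (2301), Supt16h (2274), Ssrp1 (1364), Chaf1a (412), Asf1a (318), Daxx (299), Asf1b (261), Chaf1b (227) and Hira (192). Among the first 3 the SD over the 2 libraries was 1924, 1305 and 794 per kb, wider than the gaps between them. The steps down from Supt16h to Ssrp1 and from Ssrp1 to Chaf1a were wider than the SD of either gene. From Chaf1a to Hira each step was smaller than the larger SD of the neighbours, so that these neighbours did not differ beyond their spread. In 2i the means ran from 1184 for Nap1l1 to 94.0 for Hira. The most abundant 4 lay at or above the 92.0 percentile of all genes tested by mean level per kb, and the other 6 at the 56.2 to 75.6 percentile.

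Ratios of 2 transcripts within a library do not depend on the scaling of that library. The log2 ratio of Chaf1a to Chaf1b per kb was 0.24 and 1.38 in the serum libraries, against -0.25 and -0.02 in the 2i libraries, a difference of 0.95 with both serum values higher (exact permutation test, two-sided, p = 0.33, the smallest this design allows). Leaving out serum replicate 2 lowered that difference to 0.376, and leaving out serum replicate 1 raised it to 1.52. The ratio of Ssrp1 to Supt16h was -0.52 and -0.89 in the serum libraries, against -0.68 and -0.05 in the 2i libraries, and the groups overlapped. The ratio of Asf1b to Asf1a was 0.16 and -0.66 in the serum libraries, against -0.14 and -0.12 in the 2i libraries. That of Hira to Daxx was -0.58 and -0.68 in the serum libraries, against -0.67 and -1.36 in the 2i libraries, and that of Chaf1a to Hira was 0.76 and 1.34 against 0.83 and 1.42. These 4 ratios overlapped between conditions, with exact permutation p from 0.667 to 1.

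**Figure D3:**
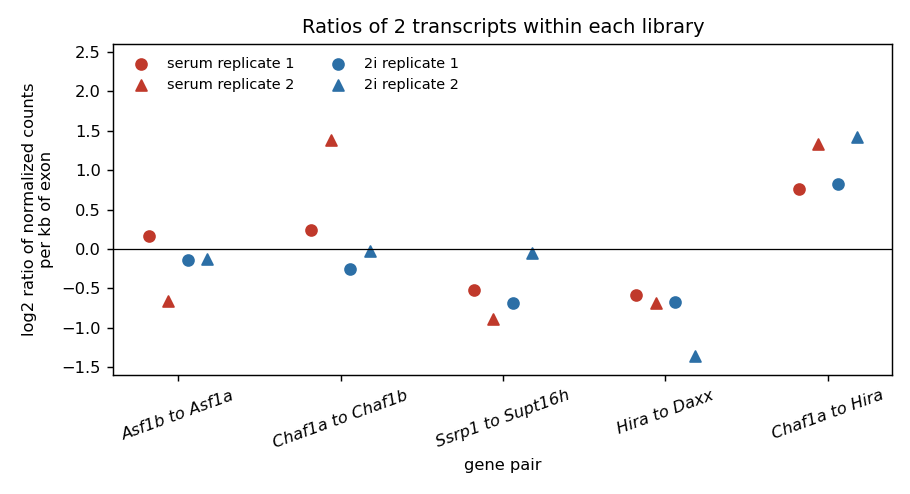
Log2 ratio of normalized counts per kb of exon for 5 gene pairs, 1 point per library, serum red and 2i blue. The ratio of Chaf1a to Chaf1b is higher in both serum libraries (0.24 and 1.38) than in the 2i libraries, and the other 4 pairs overlap.

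The partner list held 35 genes (36 gene models, since Srcap has 2) that act with these chaperones or in the same pathways, and all were tested. Serum was the higher in 33 of 36 (all genes 50.3%), and both serum values lay above both 2i values in 11 (all genes 20.5%). The median was 0.48 beside 0.0047 over all genes, moving to 0.206 when serum replicate 2 was left out and to 0.688 when serum replicate 1 was. Serum replicate 2 also lay above serum replicate 1 in 30 of 36, with a median log2 difference of 0.64 (all genes 0.045), wider than that between conditions. For 2i replicate 2 over 2i replicate 1 this held in 19, with a median of 0.06 (all genes 0.031). None of the partners passed the adjusted limma test. By limma 4 were higher at an unadjusted p under 0.05 (all genes 2.97%), and 8 had a log2 fold change above 1 (all genes 9.89%). Among these 4 were Anp32e, which removes H2A.Z, Ncl (nucleolin) and Supt6h, a transcription-elongation chaperone. Ncl had 14591 and 52140 normalized counts in the serum libraries, against 10509 and 3559 in the 2i libraries, with a log2 fold change of 2.17 ± 0.85 (limma adjusted p = 0.753, unadjusted p = 0.041). Anp32e was at 1.69 and Supt6h at 1.18.

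Among the roles of the partner genes, those of the NAP, SET and ANP32 family had the highest median, 1.03, and those of H2A.Z deposition and of the ASF1 kinases and importers the lowest, 0.18 each. In that family 3 of 5 genes had both serum values higher, beside 20.5% of all genes. Its member Set had 15172 and 40828 normalized counts in the serum libraries, against 11025 and 13446 in the 2i libraries. For Set the fold between serum replicates, 2.69, was larger than the fold between conditions, 2.04. The family member Anp32b overlapped between conditions (1.96 ± 0.98), and 63.7% of its 43-base words occur in no other annotated gene. Atrx, the partner of DAXX, had 5301 and 10108 in the serum libraries, against 3138 and 4070 in the 2i libraries, a log2 fold change of 1.03, with both serum values higher. The other HIRA complex genes Ubn1, Ubn2 and Cabin1 were at 0.19, 0.65 and 0.13. Genes that bind H4 or share CAF-1 with the chaperones, Rbbp4, Rbbp7 and Hat1, were at 0.32, 0.57 and 0.36, and at the fork Pcna and Mcm2 were at 0.47 and 0.23. Npm3, a nucleophosmin relative, was the only partner with both serum values below both 2i values, at -0.28, and 25.5% of its 43-base words also occur in the pseudogene Npm3-ps1.

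**Figure D4:**
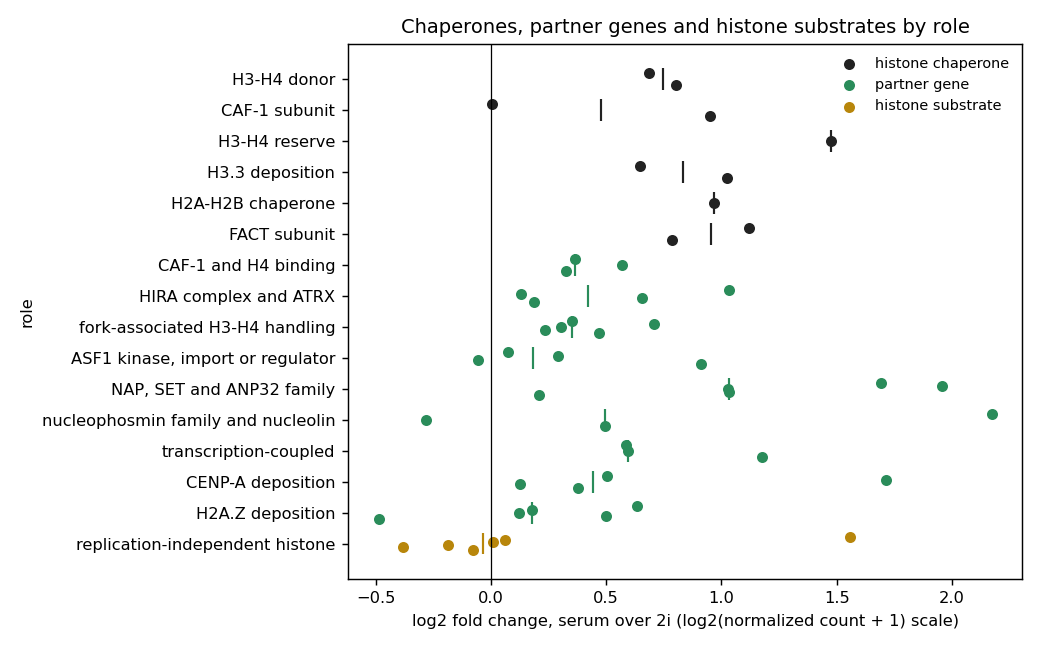
Log2 fold change of serum over 2i for each gene, grouped by role. Black points are the 10 histone chaperone genes, green the partner genes, and short bars the group medians. Gold points are the histone substrates, here replication-independent histone genes only. Median values are 0.88 for the 10 chaperone genes, 0.48 for the partners and -0.03 for the substrates.

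The substrate list held only 6 replication-independent histone genes, which are not all the histones that these chaperones handle. These genes showed no common direction: 3 of 6 were higher in serum, with a median of -0.03. H3f3a and H3f3b, which encode the H3.3 that HIRA and DAXX deposit, were at -0.08 and -0.38. Cenpa, the centromeric H3 variant, had 2225 and 1768 normalized counts in the serum libraries, against 841 and 537 in the 2i libraries. Its log2 fold change was 1.56 ± 0.46 (limma adjusted p = 0.753, unadjusted p = 0.013), with both serum values higher. H2afz differed more between replicates than between conditions, with 2580 and 17621 in the serum libraries, against 2899 and 20255 in the 2i libraries. Of the 43-base words of H2afz 54.1%, and of H3f3a 72.0%, occur in no other annotated gene, so these values are uncertain. Replication-coupled histone genes were not analysed here, and the study reports higher expression of them in serum ESCs in late and in early G1-phase. Its gene ontology analysis of late G1-phase, at its own thresholds, also reports chromatin assembly and S-phase entry genes as higher in serum. The text of the study does not name those genes.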

How the data were processed

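RNA of 2 serum and 2 2i libraries was analysed. Per the study's methods, total RNA of sorted cells was depleted of ribosomal RNA, primed at random, sequenced, aligned with Bowtie to mm9 and quantified with MMSeq; versions were not given in the sources used here. The deposited values are a signal, gene counts that the authors divided by a size factor per library. All of them (100%, tolerance 0.05) came out as whole reads, 18939401 to 26570098 per library. Genes were named with GENCODE vM1, which describes mm9 and held 14462 of 14533 genes.

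The 13005 genes whose group mean reached 50 in serum or 2i were tested in R 4.3.3 by limma 3.58.1, on log2 values after adding a pseudocount of 1, trended variance and no replicate term; this scale understates changes of low genes. Calls needed an adjusted p (Benjamini-Hochberg, all genes) under 0.05 and a log2 fold change beyond 1. The study used DESeq2; since the values were scaled, edgeR 4.0.16 and DESeq2 1.42.0 on recovered reads were alternatives, beside pseudocounts of 0.5 and 5, no filter, TMM and upper quartile scaling, a replicate block and leaving out each library. Only the limma fit was tested on simulated data with known changes. Within-library ratios had an exact permutation test, two-sided. Named genes were the 10 chaperones and genes of the partner, substrate and marker lists. Rpgrip1, Ubxn6, Gm4204 and Npm3-ps1 were named after the values were seen, for shared bases. Not all partner genes are named here. The members and lists were chosen with earlier results of these data known.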

Additional observations from a re-analysis of the deposited data

How the results depend on the processing

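Of the recomputed values, 230 were labelled as kept, 18 as moved and 9 as reversed, and the cause was not tested. A ratio was kept if its sign held, and a median if it stayed within the spread between libraries. Counts were kept if they changed by no more than a fixed fold. A single gene had to keep its sign and its side of the threshold. Under every setting 0 of the 10 genes were called, so their labels rested on the sign alone. The called counts of partner and substrate genes were also 0 under every setting. The number kept therefore does not measure how stable the effect sizes were. Upper quartile scaling shifted the median of all genes to -0.12, and the median of the 10 genes lay 0.87 above that of all genes there and under TMM scaling. The number of all genes called, 2, was 0 by edgeR, 251 by DESeq2, 203 with the replicate block and 0 with each library left out in turn. The counts of the 10 genes that follow were chosen after seeing the data. Those at an unadjusted p under 0.05, 1 in the limma fit, were 0 under upper quartile scaling (all genes 2.35%), 3 by DESeq2 (5.37%) and 0 to 1 without a library (0.361% to 6.19%); the 1 was Nasp without serum replicate 1. Those with a log2 fold change above 1, 3 in all, ranged from 0 without serum replicate 2 to 6 without serum replicate 1 and 7 without 2i replicate 2, beside 9.17% to 18.1% of all genes without a library. Those with both serum values above both 2i values were 8 to 9 without a library, beside 28.8% to 39.2% of all genes. The median of the 10 genes ranged from 0.572 without serum replicate 2 to 1.14 without serum replicate 1, and was 0.593 without 2i replicate 1. Chaf1b turned to the 2i side at -0.00999 under TMM, -0.117 under upper quartile scaling, -0.0272 by edgeR and -0.0167 by DESeq2, and ranged from -0.166 to 0.174 without a library. The ratio of Asf1b to Asf1a ranged from -0.528 to 0.295, that of Chaf1a to Chaf1b from 0.376 to 1.52, and that of Chaf1a to Hira from -0.368 to 0.217 without a library, with 0.214 without serum replicate 1.

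Same-numbered libraries deviated together (r = 0.480 across genes between the replicate differences of serum and 2i), but 2 pairs do not show that the numbers pair the samples. The replicate block left the median of the 10 genes at 0.88 with none called, the smallest adjusted p being 0.322 by limma. At an unadjusted p under 0.05 the block gave Nasp in place of Hira, beside 4.90% of all genes higher in serum. The unadjusted 95% intervals of 9 of the 10 genes include 0. In fits without a library the lone sample was assumed to vary like the other group.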
